A study of Mus musculus with 72 samples.

Results

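Liver transcripts of 6 male and 6 female DBA2/J mice kept on 40% calorie restriction (CR) were compared, each mouse on its own bead array. The features compared were the autosomal probes with a detection p-value below 0.01 on at least 6 of these 12 arrays. They numbered 8485 of the 25697 probes on the arrays and stood for 6430 of the 16584 named genes with a probe, and 6790 of them were detected on all 12 arrays. The study measured liver RNA in 72 mice, 6 in each of 12 groups that cross the strains C57BL/6J and DBA2/J with sex and with ad libitum feeding (AL), 20% CR or 40% CR. Restriction began at 6 months of age in weekly steps of 10% and lasted 17 to 18 months, so that the mice were 23 to 24 months old when killed. The males and females compared here therefore share strain, diet and age, and they are set against DBA2/J males and females on AL or at 20% CR and C57BL/6J males and females at 40% CR. Restricted mice had no ration on the day they were killed, while AL mice ate until then, so diet and time since the last meal cannot be told apart, whereas the sexes at 40% CR were fed alike. No hormone was measured, and the word dimorphism is used here only for a difference in RNA between males and females.

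In rodents the pituitary releases growth hormone in pulses in males and more continuously in females, and the liver reads this pattern through the transcription factor STAT5b. Male-biased genes such as Cyp2d9, Cyp7b1, Cyp4a12a and the major urinary protein genes depend on the pulses, whereas female-biased genes such as Cyp2b9, Cyp2b13, Cyp17a1 and Slc22a26 are held down by them. Fasting acts on the liver through a different set of factors, among them PPAR alpha, which turns on fatty acid oxidation genes when fatty acids arrive from adipose tissue.

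The Y-linked gene Eif2s3y was detected on all 6 male arrays and on no female array, and Hc, the complement C5 gene that carries a known defect in DBA2/J, was lower in both DBA2/J sexes than on any C57BL/6J array. The X-linked gene Xist was detected on all 6 female arrays and on no male array. Kdm6a, also X-linked, read 7.05 to 7.57 in females and 6.06 to 6.44 in males. The strain marker Glo1 read 11.50 to 11.95 in DBA2/J females and 11.58 to 11.83 in DBA2/J males at 40% CR. In C57BL/6J at 40% CR Glo1 read 10.97 to 11.12 in females and 10.63 to 11.19 in males. Several other markers were less clear. The Y-linked genes Uty and Kdm5d were detected on 2 and 1 of the 6 male arrays and on no female array. Nnt was detected on no array of either strain. Gpnmb was not lower in DBA2/J females (mean 5.70) than in C57BL/6J females at 40% CR (mean 5.23). The share of probes detected was 35.3 to 37.3% on the male arrays and 33.1 to 38.2% on the female arrays, and any 2 of the 12 arrays correlated at 0.947 to 0.992 over the compared probes. On a principal component analysis of the compared probes, component 1 carried 48% of the variance, with all males on one side and all females on the other. All levels below are log2 normalized intensities and all differences are male minus female on the log2 scale with the standard error of a limma fit over 72 arrays. A probe was called at an adjusted p below 0.05 over the 12150 probes tested, and 6 arrays per group limit the precision.

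Of the 8485 probes, 2294 were called, 1251 higher and 1043 lower in males. That is 27% of them, beside 24.2% of all 12150 probes tested (13.4% higher and 10.7% lower in males). At an unadjusted p below 0.05 the count was 3325. Differences of at least 1.5-fold were found for 575 probes higher and 297 lower in males, and differences of at least 2-fold for 148 and 62. With the brightest probe standing for each gene, 897 of 6430 genes (14%) were higher in males and 780 (12.1%) were lower, and the median gene differed by -0.03. These 2 percentages are the background for every gene list below. The balance of the calls depended on the scaling: 54.5% of the called probes were higher in males after quantile normalization, against 76.7% of 981 called probes when arrays were only shifted to a common median, and 65.9% of 1999 on the authors' z-scores. The calls were spread over all brightness levels, with 15.9% of the 2122 dimmest and 13.2% of the 2121 brightest probes higher in males and 12% and 12.4% lower. Of the 1547 genes with several probes, 758 had at least 1 called probe, of which 580 had some but not all probes called and 45 had probes called in opposite directions, so a gene's call is that of the probe named.

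**Figure D1:**
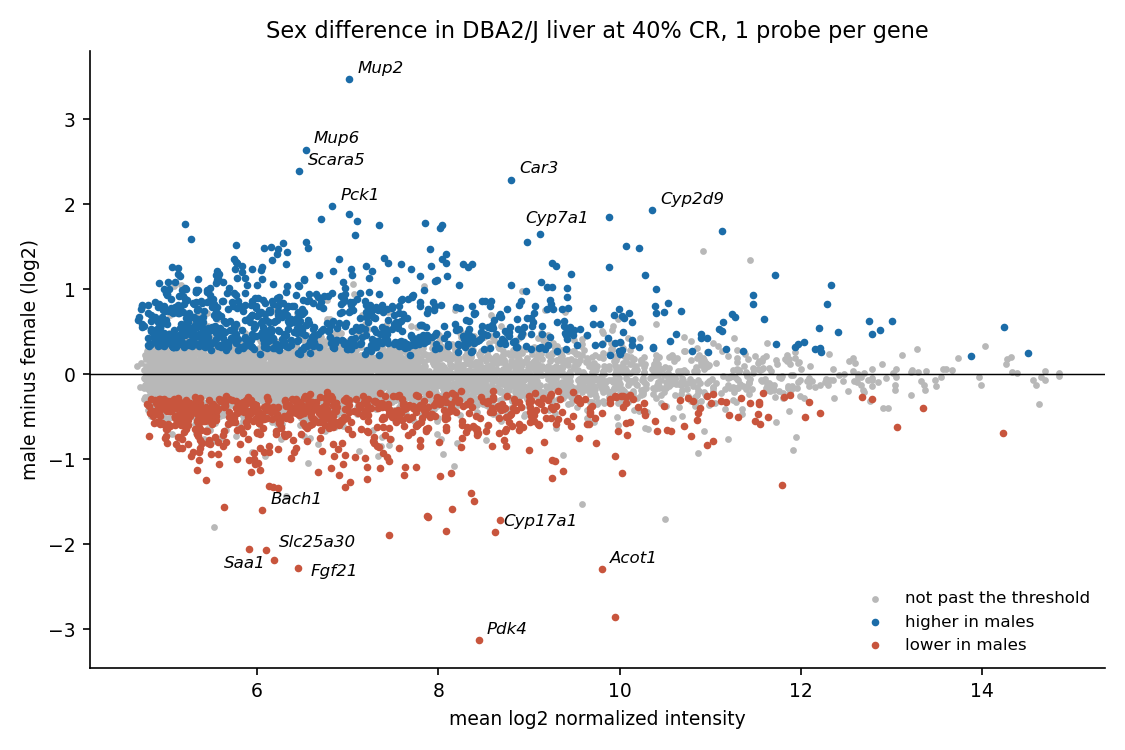
Male minus female difference at 40% CR (vertical axis, log2) against the mean log2 normalized intensity of the 12 arrays (horizontal axis), 1 point per gene; blue points were called higher in males, red points lower, grey points were not called. Called genes lie at all levels, with Mup2 at 3.47 and Pdk4 at -3.12.

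Genes known as male-biased in mouse liver were partly dimorphic at 40% CR. Of 35 such genes with a probe 18 were compared, 2 of them through the male arrays alone. Of these 18, 7 were higher in males and none was lower (4 and 0 under the shift to a common median), with a median difference of 0.72 beside -0.03 over all genes, and for 8 every male value lay above every female value, as for 7.84% of all probes tested; every male value lay below for 5.56% of all probes. Cyp2d9, a steroid 16-alpha-hydroxylase, had levels of 10.77, 11.32 and 12.10 (lowest, median and highest) in males, against 8.45, 9.53 and 9.80 in females. Cyp7b1, the oxysterol and steroid 7-alpha-hydroxylase, ran at 8.56, 8.88 and 9.08 in males and 6.83, 7.10 and 7.55 in females. Neither gene's male values overlapped the female values. The differences were 1.93 ± 0.37 (adjusted p = 4.7e-05) for Cyp2d9 and 1.72 ± 0.28 (adjusted p = 2.75e-06) for Cyp7b1, or 3.81-fold and 3.29-fold. Ugt2b1, a glucuronosyltransferase, was higher in males by 1.36 ± 0.25 (adjusted p = 3.41e-05) with levels of 7.95 to 8.33 in males and 6.25 to 7.17 in females, again without overlap.

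Cyp4a12a, an arachidonic acid and fatty acid omega-hydroxylase, was detected on all 6 male arrays, at 5.22, 5.99 and 7.19, and on no female array, where it read 4.19, 4.23 and 4.63. It was at least 2.34-fold higher in males, the bound being set by the dimmest signal that counts as detected, with a fitted adjusted p of 0.0251 that lay above 0.05 without male array E (0.0533) or male array F (0.0693), under the shift to a common median (0.0646), without background correction (0.138) and on the z-scores (0.171). C4a, the sex-limited complement protein gene, was likewise detected on 6 male arrays and no female array, and was at least 1.77-fold higher in males (adjusted p = 7.5e-08). In all, 44 probes were detected on every male array and no female array, and 6 the other way round; these entered the comparison through 1 sex alone and had to differ. Mcm10, a replication factor, was higher in males by 0.98, and the glutathione S-transferase gene Gstp2 by 0.93 ± 0.32 (adjusted p = 0.0257). The male values of Gstp2 (4.94 to 6.58) overlapped the female values (4.59 to 5.38), and its call was lost in 4 of 12 fits that each left out 1 array. It was also lost under the shift to a common median (adjusted p = 0.08), without background correction (0.12) and on the z-scores (0.169). The remaining 11 genes, among them C6, C8a, Keg1, Serpina1e and Selenbp2, were not called, with differences of -0.82 to 0.76. Members of near-identical families (Mup, Cyp2b, Cyp4a12, Gstp, Acot, Serpina1, C4a and C4b) may share signal on one another's probes, so the identity of the gene behind such a value is uncertain.

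The major urinary proteins are pheromone-binding lipocalins that male liver secretes for excretion in urine. Mup2 levels were 7.71, 8.71 and 10.04 in males, against 4.52, 5.19 and 6.39 in females, and Mup6 levels were 6.86, 7.79 and 9.12 in males, against 4.28, 5.27 and 5.92 in females. The groups did not overlap for either gene. Mup2 was 11.1-fold higher in males (3.47 ± 0.74, adjusted p = 0.000229) and Mup6 6.24-fold higher (2.64 ± 0.66, adjusted p = 0.0019). Rbp4, the plasma retinol carrier of the same lipocalin family, was higher in males by 1.51 ± 0.16 (adjusted p = 5.12e-11), with levels of 10.69 to 11.08 in males and 9.03 to 9.73 in females. Mup21, by contrast, read 6.44, 6.69 and 6.80 in males and 6.40, 6.54 and 7.10 in females, a difference of -0.01 ± 0.58 (adjusted p = 0.995). Together 3 of 6 lipocalin genes were called, all higher in males, with a median difference of 0.75.

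Since Mup2 and Mup6 differed in the same direction and lie in the same gene cluster, the 250 bases before their transcription starts are shown here, from RefSeq (GRCm38.p6), with the longest run of bases that both share in capitals. The Mup2 promoter is at chr4:60139857-60140106 on the minus strand and the Mup6 promoter at chr4:60003231-60003480 on the plus strand. The shared run is 39 bases long and begins 164 bases before the Mup2 start and 130 bases before the Mup6 start.
Mup2: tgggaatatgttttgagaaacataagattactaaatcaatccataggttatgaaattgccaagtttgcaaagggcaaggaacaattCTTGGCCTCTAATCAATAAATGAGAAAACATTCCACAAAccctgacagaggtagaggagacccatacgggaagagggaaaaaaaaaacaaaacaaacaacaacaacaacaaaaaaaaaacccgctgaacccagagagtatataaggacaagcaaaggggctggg
Mup6: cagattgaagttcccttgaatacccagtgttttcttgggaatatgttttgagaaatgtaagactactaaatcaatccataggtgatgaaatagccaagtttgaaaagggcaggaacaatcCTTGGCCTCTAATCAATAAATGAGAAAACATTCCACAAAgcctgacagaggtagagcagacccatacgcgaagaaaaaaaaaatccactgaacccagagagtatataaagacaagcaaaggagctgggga
The letters TTCNNNGAA, the core that STAT5 proteins recognise, were searched on both strands in the same window of all genes and occurred in 7.02% of 32851 promoters. A promoter was available for 5288 of the 6430 genes: it held these letters in 57 of 752 genes higher in males (7.58%), 35 of 643 genes lower in males (5.44%) and 284 of 3893 genes not called (7.3%). Neither Mup window holds them, which says only that the letters are absent from these 250 bases.

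Female-biased genes showed little dimorphism at 40% CR. Of 22 measured, 2 were lower in males, 1 was higher and 19 were not called, with a median difference of -0.10. Cyp17a1, the 17-alpha-hydroxylase and lyase of steroid synthesis, had levels of 6.70, 7.79 and 8.66 in males, against 9.06, 9.47 and 10.36 in females, with no overlap and a difference of -1.85 ± 0.54 (adjusted p = 0.00809). Gas6, the ligand of the Tyro3, Axl and Mer receptors, was lower in males by 0.79 on the log2 scale, at 7.33 to 7.91 in males and 8.05 to 8.65 in females. Aldh1b1, a mitochondrial aldehyde dehydrogenase, was the member called higher in males, by 0.66 ± 0.25 (adjusted p = 0.0449), and lost its call in 8 of 12 fits that left out 1 array.

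The female-biased genes Cyp2b13, Cyp2b9 and Slc22a26 were not called. Cyp2b13, a cytochrome P450, read 9.74, 10.10 and 10.47 in males, against 9.58, 10.31 and 11.18 in females (difference -0.25 ± 0.65). Cyp2b9, its close relative, read 9.41, 9.88 and 10.14 in males and 9.78, 10.01 and 10.26 in females (difference -0.17 ± 0.62). Slc22a26, an organic anion carrier, read 7.84, 8.43 and 8.76 in males and 8.25, 8.55 and 8.85 in females (difference -0.18 ± 0.46). Male and female values overlapped for all 3 genes, with adjusted p of 0.835, 0.884 and 0.834, which does not show that they are equal. Slc22a26 is also shown by its promoter, at chr19:7802668-7802917 on the minus strand, because the TTCNNNGAA letters, in capitals, occur in it.
Slc22a26: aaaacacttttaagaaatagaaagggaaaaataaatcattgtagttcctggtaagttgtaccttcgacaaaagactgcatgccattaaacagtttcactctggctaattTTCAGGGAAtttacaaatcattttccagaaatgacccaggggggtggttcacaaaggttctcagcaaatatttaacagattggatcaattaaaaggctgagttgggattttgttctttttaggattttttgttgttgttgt
A match of letters is a description of the sequence and not a measured binding site.

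**Figure D2:**
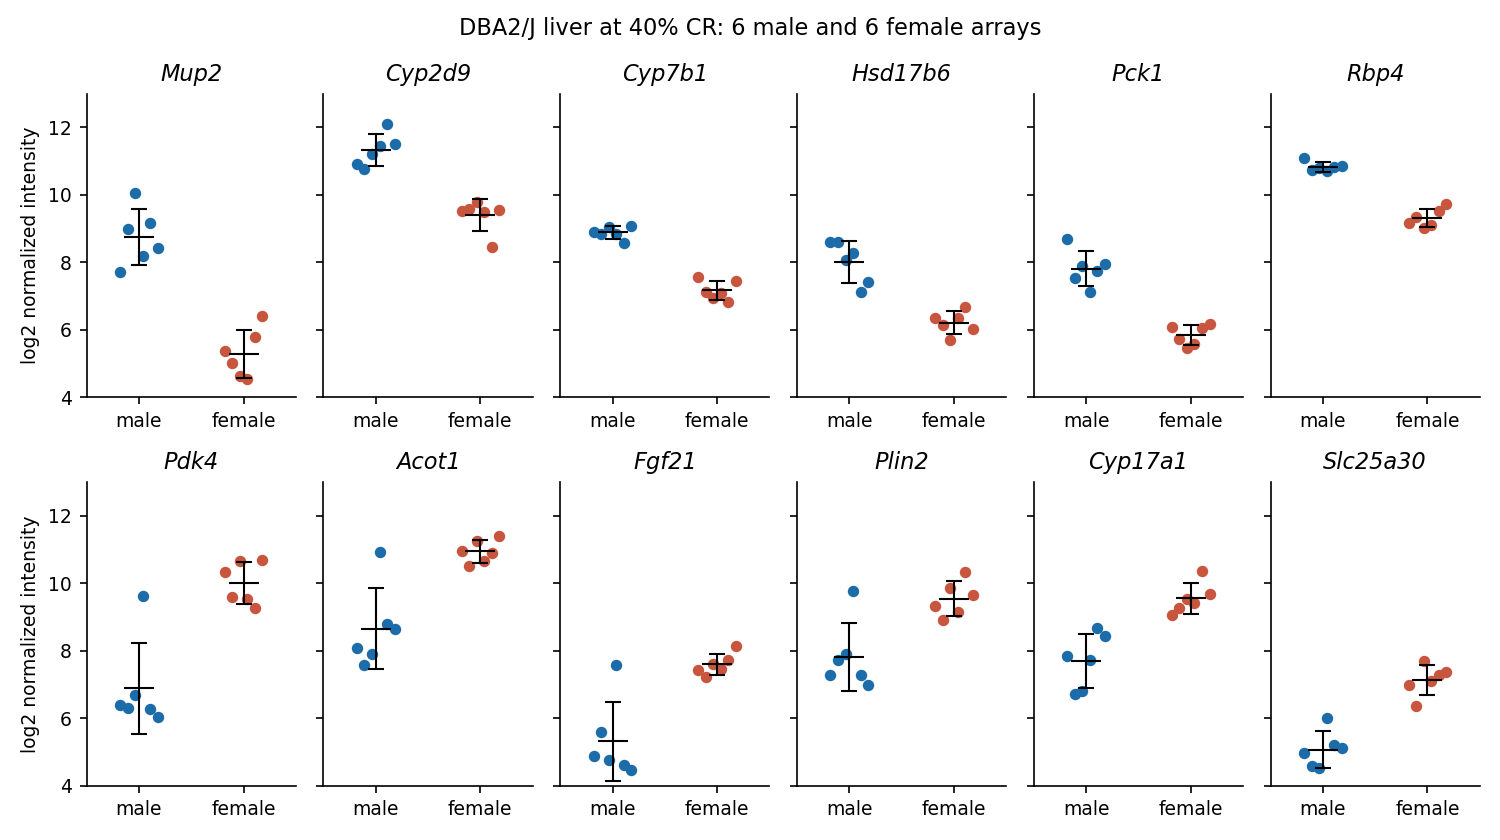
Log2 normalized intensity (vertical axis) of 12 genes in DBA2/J males and females at 40% CR; each point is 1 array and the bars give the mean and 1 SD of 6 arrays. In the upper row the male values lie above the female values without overlap; in the lower row they lie below, except that male array D reached the female range for Pdk4, Acot1, Fgf21 and Plin2.

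Transcripts of the growth hormone and insulin-like growth factor axis were called at a share near that of all genes. Of 14 measured, 1 was higher and 2 were lower in males, beside 14% and 12.1% of all genes. The median was -0.08. The receptor gene Ghr (-0.08), its kinase gene Jak2 (0.18) and the feedback inhibitor genes Socs2 (-0.11) and Cish (-0.50) were not called. Igf1, the hormone that the liver releases under growth hormone, read 11.14, 11.22 and 11.45 in males, against 11.45, 11.60 and 11.80 in females. The highest male value stood just below the lowest female value. The difference was -0.34 ± 0.11 (adjusted p = 0.0179, and 0.0525 without female array E). Stat5a, which encodes a signal transducer of the axis, was lower in males by 0.44 on the log2 scale, with an adjusted p of 0.0444 that was lost in 9 of 12 fits leaving out 1 array. Igfbp1, a binding protein induced by fasting, was higher in males by 1.24 ± 0.41 (adjusted p = 0.0194), with overlapping values of 7.65 to 9.77 in males and 6.05 to 8.26 in females. Without male array F, its highest value, the difference was 0.95 (adjusted p = 0.0904), and without female array D it was 1.03 (adjusted p = 0.0712).

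Among 17 liver transcription factors and nuclear receptors, 4 were lower in males and none was higher (1 and 0 under the shift to a common median), with a median of -0.29. Nr5a2 (LRH-1), a regulator of bile acid and steroid genes, ran at 6.63 to 7.24 in males and 7.40 to 8.51 in females and was lower by 0.85 on the log2 scale (adjusted p = 0.000295), while its second probe differed by 0.09. Nr1h3 (LXR alpha), the oxysterol sensor, was lower by 0.36 on the log2 scale in males (adjusted p = 0.00612), with its second probe at 0.11. The pioneer factors Foxa3 and Foxa1 differed by -0.61 (adjusted p = 0.0136) and -0.44 (adjusted p = 0.038), and the Foxa1 call was lost in 6 of 12 fits leaving out 1 array. Under the shift to a common median, Foxa3, Foxa1, Nr1h3, Igf1 and Stat5a were not called. Bcl6 (-0.82) and Cux2 (0.22), repressors linked to male and female liver programmes, were not called, nor was Hnf4a (0.43). Of the sex steroid, thyroid and glucocorticoid receptor list only Esr1 (0.34) and Ncoa1 (0.01) were measured, and neither was called.

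Steroid-converting enzymes moved in both directions. Of 16 measured, 5 were higher and 1, Cyp17a1, was lower in males, with a median of -0.20. Hsd17b6, a hydroxysteroid and retinol dehydrogenase, had levels of 7.11, 8.16 and 8.60 in males and 5.69, 6.25 and 6.68 in females, with no overlap. It was 3.48-fold higher in males (1.80 ± 0.38, adjusted p = 0.000189). Akr1c14, the 3-alpha-hydroxysteroid dehydrogenase, was higher by 0.93, Hsd3b2 by 0.77 and Hsd17b12 by 0.41. Bile acid synthesis overlaps with this list: 4 of 16 genes were higher in males and none was lower, with a median of 0.05. Cyp7a1, the rate-limiting enzyme of bile acid synthesis, had levels of 9.74, 10.90 and 11.42 in males, against 6.96, 9.33 and 9.83 in females. The groups overlapped at the edge. The difference was 1.85 ± 0.56 (adjusted p = 0.0101) and 1.45 (adjusted p = 0.0553) without female array E. Baat, which joins bile acids to taurine or glycine, was higher by 1.31.

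Several drug-metabolising enzymes were higher in males. Of 26 cytochrome P450 genes of families 1 to 3, 8 were higher in males and none was lower (4 and 0 under the shift to a common median), with a median of 0.26; besides Cyp2d9 these were Cyp2f2, which metabolises small aromatic compounds (1.16 ± 0.24, adjusted p = 0.000119), Cyp2c67 (0.84 ± 0.17, adjusted p = 0.000164), Cyp3a11 (0.83), Cyp2c29 (0.81), Cyp2c50 (0.65), Cyp2c37 (0.54) and Cyp2d26 (0.51). Of 9 family 4 genes, Cyp4a12a, compared through the male arrays alone, was the 1 called, a call that was lost under the shift to a common median, without background correction and on the z-scores. Of 19 sulfotransferase, glucuronosyltransferase and flavin monooxygenase genes, 4 were higher in males and 1 was lower (2 and 0 under the shift to a common median), with a median of 0.23. Ugt2b34 was higher by 1.12 ± 0.21 (adjusted p = 2.72e-05), and Ugt2a3 by 0.68 ± 0.24 (adjusted p = 0.0315, lost in 6 of 12 fits leaving out 1 array). Of 20 glutathione S-transferase genes, 5 were higher in males and none was lower (3 and 0 under the shift to a common median), with a median of 0.27. Gsta2 read 6.65 to 7.55 in males and 4.34 to 6.25 in females, and Gstm4 read 6.32 to 7.34 in males and 4.45 to 5.97 in females. Neither overlapped, and the differences were 1.55 ± 0.40 (adjusted p = 0.00261) and 1.50 ± 0.25 (adjusted p = 4.58e-06). Among 16 carriers of bile acids, steroids and drugs, 2 were lower in males and none was higher. Slc22a5, the carnitine transporter, was lower by 1.39 on the log2 scale (adjusted p = 5.03e-06), as were its 2 other probes (-1.48 and -0.86). Abcc2, the canalicular anion pump, gave -0.53 (adjusted p = 0.00747) on its brighter probe and 0.58 (adjusted p = 0.0103) on the other, so no direction can be given for it.

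**Figure D3:**
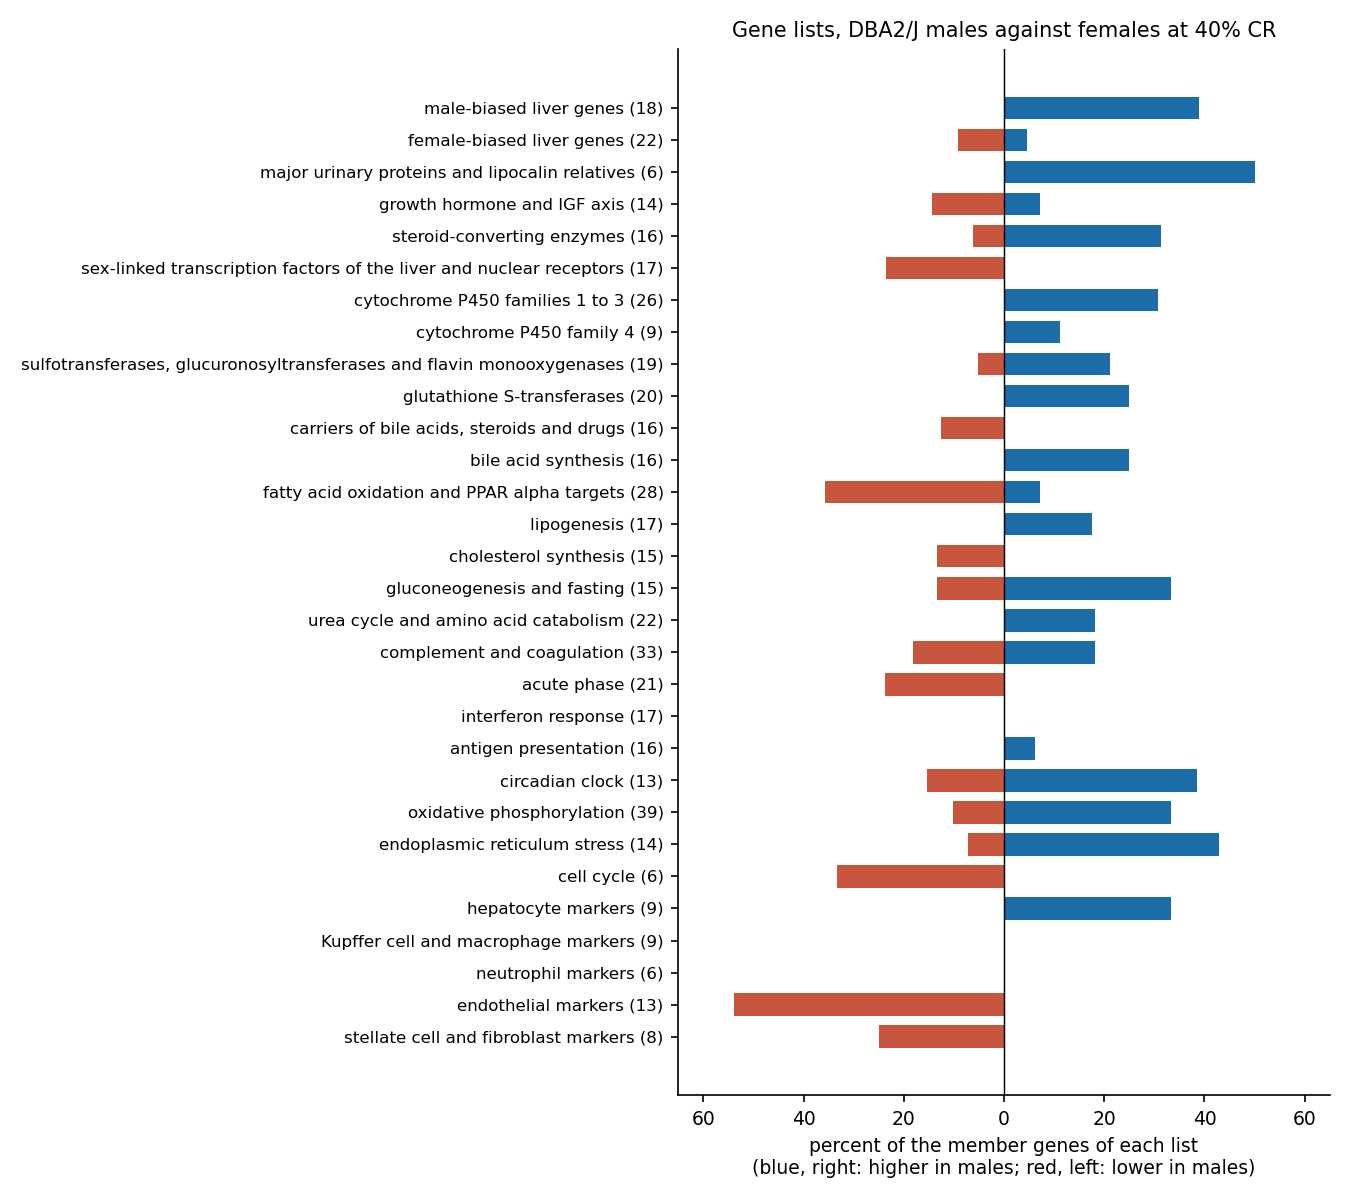
Percent of the measured genes of each list (number measured in brackets) that were called higher in males (blue, to the right) or lower in males (red, to the left) at 40% CR. Over all 6430 genes the percentages are 14 higher and 12.1 lower; the fatty acid oxidation and PPAR alpha list (2 higher and 10 lower of 28) and the endothelial list (7 lower of 13) lean to females.

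Some genes of fatty acid oxidation and PPAR alpha targets were lower in males at 40% CR. Of 28 measured, 10 were lower, 2 were higher and 16 were not called, with a median of -0.63 beside -0.03 over all genes. Pdk4, the kinase that shuts pyruvate dehydrogenase during fasting, had levels of 6.04, 6.34 and 9.61 in males, against 9.27, 9.96 and 10.69 in females. The cytosolic acyl-CoA thioesterase gene Acot1 read 7.58, 8.36 and 10.93 in males and 10.51, 10.93 and 11.40 in females. Fgf21, the hepatic fasting hormone, read 4.47, 4.82 and 7.58 in males and 7.22, 7.52 and 8.13 in females. For each of the 3 genes, 5 male arrays lay below every female array and male array D lay within the female range. The differences were -3.12 ± 0.54 (adjusted p = 8.02e-06, 8.71-fold lower) for Pdk4, -2.29 ± 0.57 (adjusted p = 0.00178) for Acot1 and -2.28 ± 0.46 (adjusted p = 0.000122) for Fgf21. Without male array D they were -3.67, -2.75 and -2.73, and the list count became 2 higher and 13 lower; with only the arrays of the comparison in the fit 16 genes were lower, and under the shift to a common median 1 was higher and 7 were lower.

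The lipid droplet genes Plin2 and Hilpda were lower in males. Plin2, the droplet coat protein, read 6.99, 7.51 and 9.76 in males, against 8.92, 9.48 and 10.34 in females, and differed by -1.71 ± 0.41 (adjusted p = 0.00119). Hilpda, an inhibitor of droplet lipolysis, read 5.71, 6.51 and 7.45 in males and 7.94, 8.34 and 9.06 in females. Plin2 overlapped through male array D alone and Hilpda did not overlap; the Hilpda difference was -1.89 ± 0.38 (adjusted p = 0.000119) and -1.51 on its second probe. Acot2, the mitochondrial thioesterase, was lower by 2.05 on the log2 scale (adjusted p = 2.1e-07), although a second, Acot2-annotated probe differed by 0.15 (adjusted p = 0.399). The mitochondrial carrier gene Slc25a30 read 4.52, 5.05 and 6.01 in males and 6.36, 7.18 and 7.69 in females, without overlap, and differed by -2.06 ± 0.30 (adjusted p = 2.1e-07). Pex11a (peroxisome division), Cpt2 and Slc25a20 (carnitine shuttle), Decr1 and Decr2 (unsaturated fatty acid oxidation) were lower in males by 1.16, 0.80, 0.67, 0.63 and 0.51 on the log2 scale. Hadh (0.99) and Hadhb (0.66), which oxidise hydroxyacyl-CoA, were the members called higher, and Cyp4a14 (-0.89), Angptl4 (-0.67) and Ppargc1a (-0.17) were not called.

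Of 15 genes of gluconeogenesis and fasting, 5 were higher in males and 2, Pdk4 and Fgf21, were lower (3 and 2 under the shift to a common median), with a median of 0.52. Pck1, the rate-limiting enzyme of gluconeogenesis, had levels of 7.10, 7.81 and 8.68 in males, against 5.45, 5.89 and 6.16 in females, without overlap. It was 3.92-fold higher in males (1.97 ± 0.21, adjusted p = 8.63e-11). Klf15, a fasting transcription factor, was higher by 1.18, G6pc, which releases glucose, by 0.93, and Gpt, which turns alanine into pyruvate, by 0.53. Among 22 genes of the urea cycle and amino acid catabolism 4 were higher and none was lower, with a median of 0.05 that turned to -0.05 under the shift to a common median and to -0.08 on the z-scores: Cth, which makes cysteine (1.56 ± 0.25, adjusted p = 2.77e-06), Hal, which degrades histidine (1.42 ± 0.26, adjusted p = 2.48e-05), Tdo2, which degrades tryptophan (1.36), and Bckdhb, for branched-chain amino acids (1.09). Bhmt, which remethylates homocysteine, was higher by 1.88 ± 0.44 (adjusted p = 0.000903), and Slc38a4, an amino acid transporter, by 1.75 ± 0.20 (adjusted p = 2.82e-10).

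Of 17 lipogenic genes, 3 were higher in males and none was lower (2 and 0 under the shift to a common median), with a median of -0.06. Scd1, the stearoyl-CoA desaturase, was higher by 1.17 ± 0.29 (adjusted p = 0.00186) with overlapping values, Acaca by 0.80, and Me1 by 0.84 ± 0.32 (adjusted p = 0.0444, lost in 11 of 12 fits leaving out 1 array). Of 15 cholesterol synthesis genes, 2 were lower in males, both not called under the shift to a common median, with a median of -0.41: Insig1, the sterol-sensing regulator (-0.77, adjusted p = 0.012), and Cyp51, the lanosterol demethylase (-0.65, adjusted p = 0.0209). Without male array F the Insig1 difference was -0.60 (adjusted p = 0.0642), and its 2 other probes gave -0.55 and 0.61, neither called. Without male array E the Cyp51 difference was -0.46 (adjusted p = 0.117), and without female array E it was -0.59 (adjusted p = 0.0527). In the circadian list 5 of 13 genes were higher and 2 lower in males (4 and 0 under the shift to a common median), with a median of 0.31: Bhlhe40 (1.23), Ciart (1.16), Nr1d2 (1.06), Dbp (0.87) and Tef (0.70) against Nfil3 (-0.96) and Clock (-0.44). The hour at which each mouse was killed was not used here, so its part in these values was not tested.

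Oxidative phosphorylation genes were called in both directions, 13 higher and 4 lower in males of 39 (7 and 0 under the shift to a common median), with a median of 0.12. Sdhd, the membrane anchor of complex II, had levels of 7.14, 7.63 and 7.95 in males and 5.53, 5.82 and 6.12 in females, and Atp5a1, the alpha subunit of ATP synthase, 8.60, 8.74 and 8.99 in males and 6.83, 6.93 and 7.24 in females. Neither overlapped, and they were higher in males by 1.83 ± 0.20 (adjusted p = 1.59e-10) and 1.78 ± 0.16 (adjusted p = 8.78e-14), followed by Ndufb9 (1.64) and Ndufb5 (0.94). The 4 genes called lower, Cox6b1, Atp5j, Uqcrh and Ndufa2, differed by -0.32 to -0.24. Of 14 endoplasmic reticulum stress genes, 6 were higher and 1 lower in males (2 and 1 under the shift to a common median): Atf4, the stress transcription factor, was higher by 0.99 ± 0.15 (adjusted p = 5.25e-07), and Ddit3 (CHOP), its target, was lower by 0.84 on the log2 scale (adjusted p = 0.000282), with a second Ddit3 probe at -0.19. The other genes called higher were the chaperones and disulfide isomerases Hsp90b1 (0.69), Pdia6 (0.60), Pdia3 (0.48) and Pdia4 (0.41) and the degradation adaptor Sel1l (0.55).

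Plasma protein genes were called in both directions. Of 33 complement and coagulation genes, 6 were higher and 6 lower in males (3 and 0 under the shift to a common median). Over all genes the shares were 14% and 12.1%. C4a, among the 6 higher, was compared through the male arrays alone and had to differ. The list had a median of -0.12. Cfb, complement factor B, read 9.72 to 10.17 in males and 7.80 to 8.86 in females, without overlap, and was 3.12-fold higher in males (1.64 ± 0.18, adjusted p = 1.44e-10). Of 21 acute phase genes, 5 were lower in males and none was higher (3 and 0 under the shift to a common median), with a median of -0.40. Saa1, the serum amyloid A gene, read 4.24, 4.97 and 6.17 in males, against 5.31, 7.76 and 8.98 in females, and differed by -2.18 ± 0.77 (adjusted p = 0.0297, lost in 5 of 12 fits leaving out 1 array). Its values overlapped. Stat3, the factor that drives this response, was lower by 0.81 on the log2 scale (adjusted p = 0.000642), with its 2 other probes at -0.74 (called) and -0.27 (not called). Hp (-0.69), Orm1 (-0.62) and Crp (-0.59) made up the rest. Of 16 antigen presentation genes, H2-D1 was called, higher in males (0.71 ± 0.21, adjusted p = 0.0102). In the limma fit 0 of 17 interferon response genes were called, with 2 higher and 2 lower in males at an unadjusted p below 0.05.

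Other genes with large differences and no overlap belonged to none of these lists. Scara5, a ferritin receptor, had levels of 6.85, 7.69 and 8.51 in males, against 4.67, 4.95 and 6.39 in females, and was 5.22-fold higher (2.38 ± 0.40, adjusted p = 4.28e-06). Below the female range lay the transcription factor genes Klf6 (-1.67 ± 0.29, adjusted p = 1.03e-05), Bach1, a haem-regulated repressor (-1.60 ± 0.18, adjusted p = 3.35e-10), and Bcl3, a partner of NF-kappa B (-1.56 ± 0.27, adjusted p = 1.05e-05). The same held for Cpne8 (-1.33), the RNA helicase gene Ddx6 (-1.31), Rufy4 (-1.26), Paqr9 (-1.19) and the uracil-DNA glycosylase gene Ung (-1.19); the second Ung probe gave -0.80, and the second Paqr9 probe, at -0.43, was not called. Of 6 measured cell cycle genes, Cdkn1a, the p21 inhibitor, was lower by 1.84 on the log2 scale (adjusted p = 0.00445) with overlapping values, its 2 other probes at -1.55 (called) and -0.84 (not called), and Ccnd2 by 0.74 (adjusted p = 0.0492, lost in 11 of 12 fits leaving out 1 array).

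Markers of the cells in the liver moved with sex as well. In tissue RNA, fewer cells of a type and less RNA per cell cannot be told apart. The mean level of 9 hepatocyte markers was 13.50 to 13.61 in males and 13.03 to 13.25 in females, without overlap, and 3 of them were called higher: Serpina1a, alpha-1 antitrypsin (1.68 ± 0.15, adjusted p = 2.82e-13, with its second probe at 1.46), Apoh, beta-2 glycoprotein I (1.48 ± 0.13, adjusted p = 1.17e-13) and Ttr, transthyretin (0.55). The other 6, among them Apoa1 (-0.13), Trf (-0.02) and Ahsg (0.01), were not called. The hepatocyte list had a median of 0.03, which turned to -0.02 under the shift to a common median, where 2 were higher and 3 lower, and to -0.09 on the z-scores. The mean of 13 endothelial markers was 6.52 to 6.65 in males and 6.85 to 7.14 in females, without overlap. Of these, 7 were lower in males and none was higher, with a median of -0.39, against 1 and 0 under the shift to a common median and 5 and 0 on the z-scores. The 7 were Vwf, von Willebrand factor (-1.05 ± 0.33, adjusted p = 0.0139, and 0.0527 without female array E), the sinusoidal lectin gene Clec4g (-0.67 ± 0.15, adjusted p = 0.000366), Fcgr2b (-0.64), Pecam1 (-0.51), Egfl7 (-0.44), Esam (-0.39) and Stab1 (-0.36). Their part in the sex differences of other genes was not tested.

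The remaining cell lists overlapped between the sexes. Mean levels were 6.70 to 7.15 in males and 6.49 to 6.98 in females for 9 Kupffer cell markers. They were 5.93 to 7.73 in males and 6.97 to 7.77 in females for 6 neutrophil markers, and 7.02 to 7.33 in males and 7.21 to 8.23 in females for 8 stellate cell and fibroblast markers. In the limma fit 0 Kupffer and 0 neutrophil markers were called. At an unadjusted p below 0.05, 3 Kupffer markers were higher in males and 1 neutrophil marker was lower. The list medians were -0.30 and -0.70, so the Kupffer list was split in direction. Of the stellate markers, Lum (-0.80) and Acta2 (-1.32 ± 0.50, adjusted p = 0.0464) were called lower in males; Acta2 read 10.23 on female array F and at most 6.34 on the other female arrays, and without that array its difference was -0.65 (adjusted p = 0.326). Erythroid markers stood at 7.49 to 8.89 in males and 8.16 to 9.54 in females, with Hba-a1 called (-1.30). Adipocyte markers stood at 8.97 to 9.44 in males and 7.70 to 9.20 in females, with Car3, carbonic anhydrase III, called. Car3 is also a known hepatocyte gene and read 9.31, 10.05 and 10.53 in males, against 5.93, 7.48 and 9.15 in females, a difference of 2.29 ± 0.82 (adjusted p = 0.0328, lost in 6 of 12 fits leaving out 1 array). Both pancreas markers and the 1 measured B cell marker were not called, and no T cell, NK cell or bile duct marker was detected on enough arrays to be compared.

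Sex differences at 40% CR were next set beside those of the same strain on AL, over mice that are not shared. Of the 8485 probes, 565 were called between AL males and females (background 6.07%; 217 under the shift to a common median), 199 of them in the same direction as at 40% CR and 30 in the opposite one. Over these probes the differences correlated at r = 0.31, a description across probes that share the array and its normalization. The median absolute difference was 0.21 at 40% CR and 0.14 on AL. The change in the sex difference from AL to 40% CR was itself called for 634 probes in the positive direction (background 6.53%) and 467 in the negative (background 4.87%). Under the shift to a common median, which moved the median of this contrast to 0.20, the counts were 372 and 32.

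**Figure D4:**
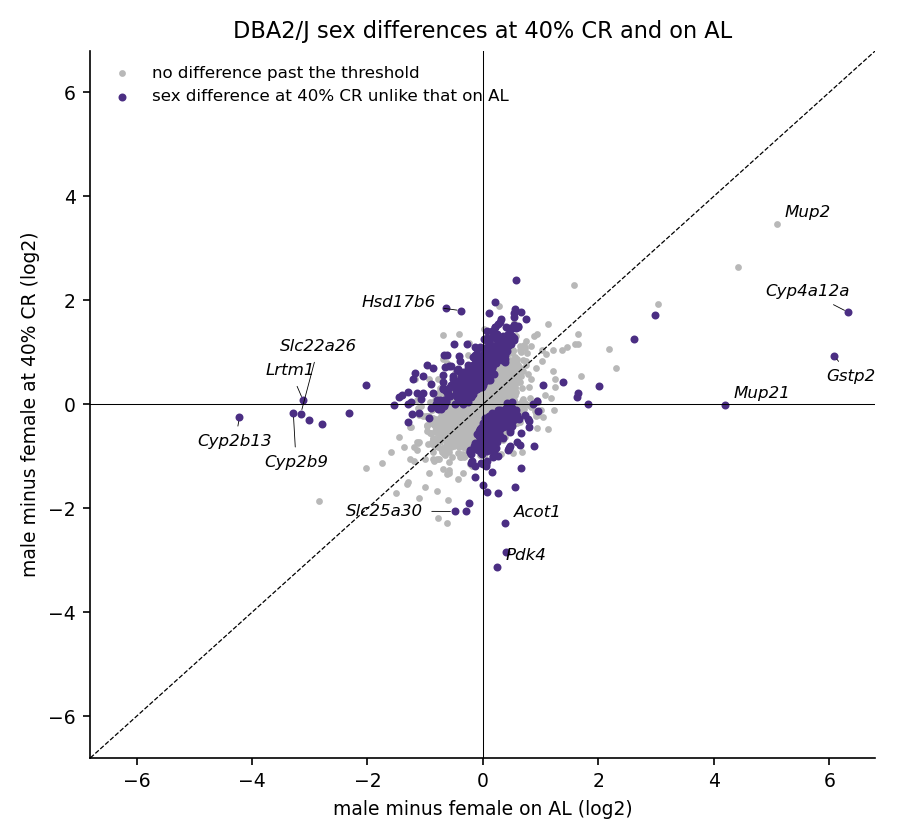
Male minus female difference at 40% CR (vertical axis, log2) against that on AL (horizontal axis, log2) in DBA2/J, 1 point per gene; purple points are genes whose sex difference was called different between the diets, the dashed line marks equal differences. Cyp2b13, Cyp2b9, Slc22a26, Gstp2, Cyp4a12a and Mup21 lie far out on AL and near 0 or much closer to it at 40% CR; Cyp4a12a was undetected in females at 40% CR, so its height is against background.

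Of the 8 genes named for the largest changes, 7 had smaller sex differences at 40% CR than on AL, and Pdk4 a larger one. Cyp2b13 differed by -0.25 at 40% CR and by -4.22 ± 0.65 on AL, Slc22a26 by -0.18 and -3.15, Cyp2b9 by -0.17 and -3.28, and Lrtm1, a leucine-rich transmembrane protein gene, by 0.08 and -3.11. The changes in the sex difference were 3.97 ± 0.92 (adjusted p = 0.0024), 2.98 ± 0.66 (adjusted p = 0.00156), 3.11 ± 0.87 (adjusted p = 0.0125) and 3.19 ± 0.49 (adjusted p = 1.25e-05). In AL males, Cyp2b13, Slc22a26 and Lrtm1 were detected on 3 of 6 arrays and Cyp2b9 on 4. All 4 rose in males, by 5.12, 3.46, 3.44 and 2.73 at 40% CR over AL, while the changes in females, 1.15, 0.48, 0.32 and -0.46, were not called. Gstp2, Cyp4a12a and Mup21 ran the other way. Gstp2 differed by 0.93 at 40% CR and by 6.09 on AL, and Mup21 by -0.01 and 4.2, with changes of -5.15 ± 0.45 (adjusted p = 5.41e-13) and -4.21 ± 0.82 (adjusted p = 0.000357). Cyp4a12a was detected on 0 of 6 female arrays at 40% CR and 1 of 6 on AL, so its sex differences are against background and have no exact size. Its levels were 5.22 to 7.19 in males at 40% CR, against 8.83 to 12.51 in AL males. In males Gstp2 fell by 5.04, Cyp4a12a by 4.76 and Mup21 by 4.1, while the female values of Gstp2 and Mup21 changed by 0.11 each, not called. Over all probes tested, 40% CR against AL was called for 42.8% in males and 30.7% in females.

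Males at 40% CR overlapped the female range for Slc22a26, and for Gstp2 through 1 male array, the other 5 lying above every female array. Slc22a26 had levels of 7.84, 8.43 and 8.76 in males at 40% CR, against 4.12, 4.84 and 5.97 in AL males, while females stood at 8.25 to 8.85 at 40% CR and 7.29 to 8.36 on AL. Gstp2 had levels of 4.94, 6.12 and 6.58 in males at 40% CR, against 9.86, 11.16 and 11.79 in AL males, while females stood at 4.59 to 5.38 at 40% CR and 4.48 to 5.18 on AL. The males of both diets did not overlap for either gene, and the females of both diets did. Over the lists, 7 of 18 male-biased genes were called higher in males at 40% CR (median 0.72) against 12 on AL (median 1.65), where 2.74% of all 6430 genes were, and the change itself was called for 6, all negative, beside 5.1% of all genes. Of the 22 female-biased genes 2 were called lower in males at 40% CR (median -0.10) against 9 on AL (median -0.80), where 4.07% of all genes were, and the change was called for 5, all positive, beside 7.59% of all genes. For Cyp2d9 (change -1.11 ± 0.52, adjusted p = 0.163), Mup2 (-1.62 ± 1.04, adjusted p = 0.337), Mup6 (-1.78 ± 0.94, adjusted p = 0.226) and Cyp17a1 (0.99 ± 0.77, adjusted p = 0.44) the change was not called, so a difference between diets was not detectable for them. Cyp7b1 kept a male excess that was smaller by 1.27 ± 0.40 (adjusted p = 0.0254), and its levels fell in both sexes, by 2.60 in males and 1.33 in females.

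Some other differences were called at 40% CR and not on AL. Pdk4 differed by -3.12 at 40% CR and 0.25 on AL, a change of -3.37 ± 0.76 (adjusted p = 0.00194). At 40% CR over AL it rose by 4.56 ± 0.54 in females (adjusted p = 9.71e-10), against 1.19 ± 0.54 in males (adjusted p = 0.0679). Acot1 rose by 4.60 in females and 1.92 in males, and Acot2, Plin2 and Fgf21 rose by 2.16, 2.06 and 1.66 in females, while their changes of 0.41, 0.09 and 0.01 in males were not called. The change in the sex difference was called for Acot1 (-2.68 ± 0.81, adjusted p = 0.0209), Acot2 (-1.76 ± 0.42, adjusted p = 0.00319) and Plin2 (-1.98 ± 0.58, adjusted p = 0.0178), and not for Fgf21 (-1.66 ± 0.65, adjusted p = 0.0862). Acot2 was detected on 2 of 6 male arrays at 40% CR and on 0 of 6 on AL, and Fgf21 on 3 and 2, so their values in males lie near background. Over the fatty acid oxidation and PPAR alpha list, 0 of 28 genes were called between the sexes on AL (4 at an unadjusted p below 0.05), and the change was called negative for 5 and positive for 1. At 20% CR 7 of the 28 were higher and 2 lower in males (median 0.09), and in C57BL/6J at 40% CR 0 were called by limma, with 9 at an unadjusted p below 0.05 (median -0.32). In the opposite direction, Pck1 rose by 2.47 in males and 0.70 in females, a change in the sex difference of 1.77 ± 0.30 (adjusted p = 5.51e-05), and Hsd17b6 rose by 2.78 in males while its 0.61 in females was not called, a change of 2.18 ± 0.53 (adjusted p = 0.00406). Foxa1 was called in opposite directions, lower in males at 40% CR (-0.44, the call lost in 11 of 20 alternatives) and higher on AL (0.80, adjusted p = 0.000377, with 1 of 6 AL females detected), a change of -1.24 ± 0.23 (adjusted p = 0.000169).

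**Figure D5:**
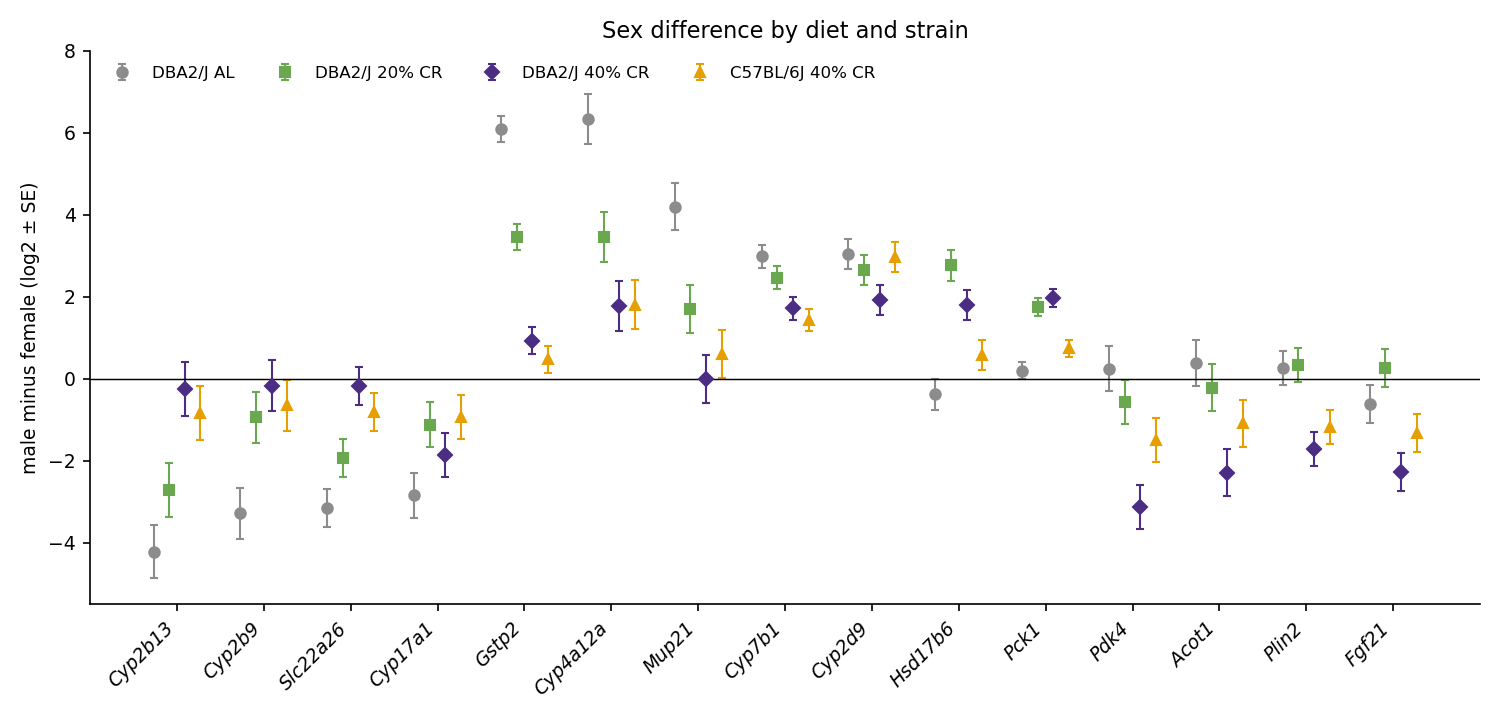
Male minus female difference (vertical axis, log2, with 1 SE) of 15 genes in DBA2/J on AL, at 20% CR and at 40% CR and in C57BL/6J at 40% CR, 6 males and 6 females in each. Cyp2b13, Slc22a26, Gstp2, Cyp4a12a and Mup21 step toward 0 from AL through 20% to 40% CR; female Cyp4a12a was undetected at both levels of CR, so its values there are against background, while Pdk4 stands at -3.12 in DBA2/J and -1.49 in C57BL/6J at 40% CR.

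At 20% CR the number of dimorphic probes was larger, 3153 of the 8485 (background 33%; 5444 under the shift to a common median, which moved the median difference at 20% CR to -0.54), and 1365 of these were called the same way at 40% CR, with 20 opposite. The differences at the 2 levels of restriction correlated at r = 0.69 over probes, with a median absolute difference of 0.21 at 40% and 0.26 at 20%. A difference between 40% and 20% CR was called for 171 probes in the positive direction (background 1.6%) and 112 in the negative (background 1.09%). Leaving out 1 of the 12 arrays at 40% CR gave 53 to 240 and 38 to 151, the lowest without male array F. The shift to a common median, which moved the median of this contrast to 0.57, gave 2824 and 9. At 20% CR 15 of the 18 male-biased genes were called higher and 1 lower in males (median 1.38). Of the 22 female-biased genes 8 were lower and 1 higher there (median -0.70). From 20% to 40% CR the change was called for 2 male-biased genes, both negative, beside 1.09% of all probes tested. It was called for 1 female-biased gene, positive, beside 1.6%. Over AL, 20% CR and 40% CR, the male minus female difference was 6.09, 3.46 and 0.93 for Gstp2, 4.2, 1.70 and -0.01 for Mup21, and -4.22, -2.71 and -0.25 for Cyp2b13. Between 40% and 20% CR the step was called for Gstp2 (-2.53 ± 0.45, adjusted p = 0.00224), and not for Mup21 (-1.71 ± 0.82, adjusted p = 0.247) or Cyp2b13 (2.46 ± 0.92, adjusted p = 0.124). Fgf21 (-2.53 ± 0.65, adjusted p = 0.0254), Plin2 (-2.05 ± 0.58, adjusted p = 0.0404) and Rgs3, a regulator of G protein signalling (-1.84 ± 0.44, adjusted p = 0.0162), were called toward females. Cyp2b10, a drug-inducible cytochrome P450 (2.48 ± 0.72, adjusted p = 0.0442), Phf11d (2.17 ± 0.62, adjusted p = 0.0422), the carboxylesterase gene Ces2e (1.43 ± 0.36, adjusted p = 0.0236) and Cyp3a13 (1.22 ± 0.29, adjusted p = 0.0143) were called toward males. At 40% CR itself Cyp3a13 was not called (-0.33, adjusted p = 0.247), with its other probes at -0.68 (called) and -0.53 (not called). Cyp2b10 was not called there either (0.49, adjusted p = 0.531). When 1 of the 12 arrays at 40% CR was left out, the calls of Cyp2b10, Phf11d, Plin2 and Fgf21 were lost in 9, 8, 7 and 2 of 12 fits.

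In C57BL/6J at 40% CR, 444 of the same probes were called between the sexes (background 5.3%; 97 under the shift to a common median), 264 of them the same way as in DBA2/J and 5 the opposite way. The differences in the 2 strains correlated at r = 0.55 over probes, and the median absolute difference was 0.21 in DBA2/J and 0.14 in C57BL/6J. The strain difference was itself called for 213 probes in the positive direction (background 2.24%) and 120 in the negative (background 1.33%). The negative count was 74 without male array C and 75 without female array C, and the counts were 16 and 5 under the shift to a common median. Scara5 differed by 2.38 in DBA2/J, while in C57BL/6J it was detected on 2 of 6 male and 0 of 6 female arrays; its strain difference, called at an adjusted p of 0.0432, was lost in 8 of 12 fits leaving out 1 array. Gstm4 (1.57 ± 0.35, adjusted p = 0.00593), Hal (1.48 ± 0.37, adjusted p = 0.0132) and Wfdc21, a whey acidic protein domain gene (1.45 ± 0.32, adjusted p = 0.0043), also had the larger male excess in DBA2/J. Slc25a30 (-1.88 ± 0.42, adjusted p = 0.00533), Acot2 (-1.72 ± 0.42, adjusted p = 0.0114) and Klf6 (-1.36 ± 0.41, adjusted p = 0.0472, lost in 8 of 12 fits) had the larger female excess in DBA2/J. Rufy4, lower in DBA2/J males, lay near background in C57BL/6J, detected on 2 of 6 male and 0 of 6 female arrays, so its strain difference has no exact size. For Cyp2d9, Mup2, Pdk4 and Cyp2b13 no strain difference was called, with values of -1.04 ± 0.52, 2.31 ± 1.04, -1.64 ± 0.76 and 0.58 ± 0.92. The male excess of Cyp2d9 was 1.93 in DBA2/J and 2.97 in C57BL/6J, and that of Cyp7b1 1.72 and 1.43, all 4 values called.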

How the data were processed

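Each of 72 mice gave 1 liver RNA sample and 1 Illumina bead array. Per the file headers, the authors deposited a raw signal intensity and a detection p-value for each of 25697 probes, exported with GenomeStudio 2011.1 per the submitters' processing notes. The deposited value table holds the authors' z-score of the log10 signal per array (a score) and served as an alternative. Intensities were background-corrected with normexp from the detection p-values (offset 16), quantile-normalized and put on a log2 scale (limma 3.58.1, R 4.3.3). Probes with detection p below 0.01 on 6 or more of 72 arrays (12150) were fitted with a mean per group (lmFit, eBayes, two-sided, Benjamini-Hochberg over all 12150).

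The brightest of a gene's compared probes stood for the gene. A probe undetected on every array of a group has only a bound there, printed as an at-least fold. Genes were named as follows: the 12 largest differences each way among called genes without overlap, the leading called genes of each of 39 lists, every called gene of the hormone-axis, receptor and transcription factor lists, and the 4 largest each way in each of 3 differences of sex differences. Further list members are given with their values after those were seen. The compared probes and the lists were chosen with earlier results of these data known. Arrays are lettered A to F per sex in the order of the table's columns. On simulated data for 12150 probes, the fit for DBA2/J males and females at 40% CR recovered 59 of 100 probes changed by 0.5 log2 and 93 of 100 changed by 1. It gave 7 false calls among the unchanged probes. The simulated noise was independent between probes, and far fewer probes were changed than were called in the data, so these rates need not hold for the data. The entry for strain of 1 male array at 40% CR names C57BL/6J while its title names DBA2/J; it was kept as DBA2/J, and the Hc level fits the DBA2/J range. No batch, slide or scan is named in the sources used here. Alternatives were no background correction, a shift to a common median, the z-scores, other detection filters, only the arrays compared and another moderation. Each of the 12 DBA2/J arrays at 40% CR was also left out in turn, and no array of the other groups was. Promoters are those of RefSeq GRCm38.p6.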

Additional observations from a re-analysis of the deposited data

Results flagged for a closer look

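In 14 of 170 checks of 6 arrays, 1 array stood far from the other 5 (gap over range above Dixon's critical value, which chance gives about 1 time in 20). Male array D was the highest of the males for Pdk4 (9.61, the next being 6.70), Acot1 (10.93, next 8.80), Plin2 (9.76, next 7.9), Fgf21 (7.58, next 5.58), Acot2 (5.87, next 4.85), the carnitine transporter gene Slc22a5 (8.65, next 7.60) and the malic enzyme gene Me1 (7.39, next 7.09). These are 7 of the 14 cases. Male array F was the highest for Igfbp1 (9.77, next 8.28), and male array E the lowest for Cyp51 (7.61, next 8.58) and H2-D1 (5.97, next 6.46). Female array E was the lowest for Cyp2d9 (8.45, next 9.48) and the highest for Nr5a2 (8.51, next 7.80). Female array F was the highest for Acta2 (10.23, next 6.34) and Cth (8.69, next 8.16).

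The sex difference itself differed between groups for the following named genes. Between 40% CR and AL in DBA2/J it changed by 3.97 for Cyp2b13, 3.19 for Lrtm1, 3.11 for Cyp2b9 and 2.98 for Slc22a26, and by -5.15 for Gstp2, -4.56 for Cyp4a12a, -4.21 for Mup21 and -3.37 for Pdk4. Between 40% and 20% CR it changed by 2.48 for Cyp2b10, 2.17 for Phf11d, 1.43 for Ces2e and 1.22 for Cyp3a13, and by -2.53 for Fgf21, -2.53 for Gstp2, -2.05 for Plin2 and -1.84 for Rgs3. Between DBA2/J and C57BL/6J at 40% CR it differed by 1.88 for Scara5, 1.57 for Gstm4, 1.48 for Hal and 1.45 for Wfdc21, and by -1.88 for Slc25a30, -1.72 for Acot2, -1.36 for Klf6 and -1.27 for Rufy4. Without male array D the change for Pdk4 between 40% CR and AL was -3.92 (adjusted p = 0.000191), the changes for Fgf21 and Plin2 between 40% and 20% CR were -2.99 and -2.43, and the strain difference for Acot2 was -1.91. Cyp4a12a in females at 40% CR and Scara5 and Rufy4 in C57BL/6J females were detected on 0 of 6 arrays, so the values given for Cyp4a12a, Scara5 and Rufy4 are against background. Causes were not tested.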

How the results depend on the processing

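Of the values of named genes under the alternatives, 2017 kept their direction and side of the threshold, 233 kept their direction and lost the call, and 9 changed sign. Sign changes befell Mup21 at 40% CR (-0.01), at 0.064 under the common median, 0.032 on z-scores, 0.032 with the replicate block and -0.057 to 0.082 with 1 array left out, and Lrtm1 (0.08), at -0.13 to 0.21 with 1 array left out. Mup21 turned positive without male arrays D or E or female arrays A or B, and Lrtm1 negative without male or female array E; neither gene was called.

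Counts below are positive and negative calls among the compared probes. Under the common median they were 752 and 229 for the sexes at 40% CR, 372 and 32 for the change from AL, 2824 and 9 for the change from 20% CR, whose median moved to 0.57, and 16 and 5 for the strain difference. On z-scores the negative counts were 682, 270 and 58 for the sexes, the change from AL and the strain difference, and the change from 20% CR, whose median moved to 0.10, gave 773 and 183. The numbers 1 to 6 in the labels do not pair the mice (same-number correlations -0.29 to 0.23, 1 of 6 best with its own): with the replicate block, on z-scores since only their columns carry the numbers, the change from AL gave 273 negative, the change from 20% CR 829 and 194, and the strain difference 61 negative. Without male replicate 6 of 40% CR, on z-scores, negative counts were 662, 255, 44 and 52, and the strain difference had 137 positive. With no detection filter the change from 20% CR gave 91 and 60. With only the arrays compared it gave 97 and 63, and the strain difference 194 negative.

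Leaving out 1 array gave 1103 to 1208 and 859 to 997 for the sexes, 543 to 639 and 386 to 479 for the change from AL, 53 to 240 and 38 to 151 for the change from 20% CR, and 148 to 237 and 74 to 131 for the strain difference. The change from 20% CR had 84 and 61 without male array C, 60 and 39 without E, 53 and 38 without F, and 85 and 59 without female array F; the negative strain count was 74 without male array C and 75 without female array C. Where calls were lost the cause was not tested. A slide block was not run because no slide is named. Dim probes near background understate differences, and 6 mice per group limit what could be called.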
